A study of Mus musculus with 6 samples.

Results

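The retinoic acid receptors are the 6 nuclear receptor genes Rara, Rarb, Rarg, Rxra, Rxrb and Rxrg, chosen by name from the 53657 gene names in the count files. All 6 were listed, and all 6 passed the filter on low counts that left 19656 genes for testing. None of them passed the test between mutant and control cells. The family held 4 receptor mRNAs that were plainly present (Rara, Rarg, Rxra and Rxrb). The other 2, Rarb and Rxrg, were detected at low counts, between 11 and 24 per sample.

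A retinoic acid receptor (RAR) binds all-trans retinoic acid, a derivative of vitamin A, and works as a dimer with a retinoid X receptor (RXR), which is also the partner of several other nuclear receptors. The dimer sits on DNA at paired copies of a short half-site. Without ligand it holds corepressors, and with ligand it exchanges them for coactivators. In the testis, retinoic acid drives undifferentiated spermatogonia into differentiation, and Stra8 and Kit are among the genes known to respond.

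The study asked what an activating Hras G12V mutation does to spermatogonial stem cells of adult mice. RNA-seq was carried out on 3 WT and 3 MUT samples of sorted undifferentiated spermatogonia, that is, tdTomato-positive cells with bright staining for the surface protein MCAM. WT and MUT mice both carried Gfra1-creERT2 and the floxed tdTomato reporter and received tamoxifen in a pair of courses of consecutive days. MUT mice also carried a flox-and-replace Hras G12V allele at its own locus, in the heterozygous state, and cells were isolated 3 months after induction. Controls came from the same litters. Recombination in this model is limited to cells in which the Gfra1 promoter was active when tamoxifen was given, together with their progeny, so later germ cells can carry the label as well. The study's methods give 3 mice per group, on a mixed background.

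The 6 libraries held between 22729292 and 23550433 counted fragments each. All 12 marker genes of undifferentiated spermatogonia passed the filter, and their summed level was 2582 to 3193 CPM (counts scaled to a common library size, after TMM normalization) in WT and 2806 to 3263 CPM in MUT. Somatic markers were lower, with sums of 32.2 to 52.6 CPM for 8 Sertoli cell genes and 12.9 to 67.2 CPM for 6 Leydig cell genes across the samples, while 6 macrophage genes summed to 494 to 949 CPM. No listed marker was at 0 in all samples. WT replicate 3 differed more from the other WT libraries than those differed from each other, with a chi-square per degree of freedom of 18.2 and 24.5 against 5.16, and results for the receptors and named genes that turn on it are given with and without it. MUT replicate 3 likewise differed more from the other MUT libraries (9.99 and 8.77) than those differed from each other (4.26). Without WT replicate 3 the undifferentiated markers summed to 3083 to 3193 CPM and the macrophage markers to 562 to 635 CPM in WT.

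The receptors share a DNA-binding domain of 2 zinc fingers, known as the best conserved part of the family. The coding sequence from the first to the fourth zinc-binding cysteine of the first finger is shown for each member, as a part of this domain. It is written 5′ to 3′ on the strand of the gene, and capitals mark the 33 of 63 positions at which the 6 members were not all the same.
Rara: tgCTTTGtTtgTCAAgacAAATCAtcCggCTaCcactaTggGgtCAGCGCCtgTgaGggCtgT
Rarb: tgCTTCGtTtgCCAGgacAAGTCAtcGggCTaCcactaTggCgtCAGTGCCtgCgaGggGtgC
Rarg: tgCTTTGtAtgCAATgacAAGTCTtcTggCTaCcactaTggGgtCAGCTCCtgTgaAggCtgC
Rxra: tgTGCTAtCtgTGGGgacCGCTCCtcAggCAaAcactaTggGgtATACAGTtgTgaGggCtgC
Rxrb: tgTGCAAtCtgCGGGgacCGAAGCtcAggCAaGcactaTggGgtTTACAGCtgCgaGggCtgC
Rxrg: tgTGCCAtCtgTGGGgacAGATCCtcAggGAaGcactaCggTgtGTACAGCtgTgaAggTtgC

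The stretches came from GENCODE vM21 transcripts on GRCm38, the build of the count files. They lie in a single exon in the RAR genes, at chr11:98966430-98966492 (plus strand) for Rara, chr14:16548417-16548479 (minus strand) for Rarb and chr15:102241839-102241901 (minus strand) for Rarg. In the RXR genes an intron interrupts them, and they span chr2:27741176-27741798 for Rxra, chr17:34033684-34034056 for Rxrb and chr1:167625045-167627326 for Rxrg, all on the plus strand. Identity over the 63 bases was 81.0% to 84.1% between RAR genes, 81.0% to 85.7% between RXR genes and 58.7% to 65.1% between a RAR and a RXR gene. The longest run shared exactly by transcripts of any 2 members was 29 bases, between Rxra and Rxrb. No run of 50 bases, the read length, was shared by any of the 15 pairs.

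Rarb is itself a classical target of retinoic acid, through an element of the DR5 type, in which 2 half-sites in the same direction are separated by 5 bases. RefSeq promoter windows on GRCm38.p6, from 250 bases before each start to 50 bases after it, were searched on both strands for any pair of the half-sites AGGTCA or AGTTCA or GGGTCA or GGTTCA in this arrangement. A match was found in 32 of 32851 windows (0.0974%). Among the members, which all had a window, it was found for Rarb alone, and among the 47 receptor and pathway genes with a window the only other match was Cyp26a1, which codes for an enzyme that breaks down retinoic acid. Both elements are shown because the levels of these genes are given with the results, with the 17 bases of the match in capitals.
Rarb: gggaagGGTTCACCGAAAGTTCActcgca
Cyp26a1: caaattAGTTCACCCAAAGTTCAtcttta

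The Rarb sequence is chr14:16575507-16575535 on the minus strand, the strand of the gene, and its match ends 36 bases before the RefSeq start. The Cyp26a1 sequence is chr19:37697770-37697798 read on the minus strand, opposite to the gene, and its match ends 15 bases before the start. A match describes the letters in the window and does not show that a receptor was bound there.

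Levels of different genes were compared per kilobase of exon, on the scale of CPM per kb. Rxra, which codes for RXR alpha, had the highest level of the family at 37.1 ± 5.66 CPM per kb in WT and 40.5 ± 2.03 in MUT (SD, n = 3 each). Rxrb followed at 20.8 ± 0.300 CPM per kb in WT and 21.7 ± 0.970 in MUT, and Rarg at 16.8 ± 1.38 and 19.4 ± 0.219. Rara was at 14.8 ± 1.36 CPM per kb in WT and 15.1 ± 1.05 in MUT. Averaged over the 6 samples, these 4 receptors lay above 93.0% (Rxra), 84.7% (Rxrb), 81.8% (Rarg) and 77.9% (Rara) of the tested genes on the same scale.

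The order from Rxra to Rxrb to Rarg to Rara was the same in 6 of 6 samples. Rxra exceeded Rxrb by 1.50 to 1.97 times within a sample. The steps below were smaller, at 1.07 to 1.30 times from Rxrb to Rarg and 1.12 to 1.38 times from Rarg to Rara. The ranges over samples of Rarg (15.8 to 19.6 CPM per kb) and Rara (13.5 to 16.2 CPM per kb) overlapped when the groups were pooled, although Rarg was above Rara within each sample. The ranges of the other neighbours did not overlap.

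Rxrg and Rarb were far lower. Rxrg averaged 0.256 CPM per kb and Rarb 0.155 CPM per kb over the 6 samples, above 6.97% and 2.88% of the tested genes. In Rarb, 2020 of the 5265 exon bases are shared with genes on the opposite strand, 1793 of them with Top2b, which codes for DNA topoisomerase II beta. The authors counted without regard to strand and left out fragments that fall on more than 1 gene, so fragments from the shared bases could not be assigned to Rarb. Over its 3245 unshared bases alone Rarb averaged 0.252 CPM per kb, and its order relative to Rxrg was then not resolved. Exons of the other 5 members are shared with no other gene.

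Per-length levels were also summed within each family. The 3 RAR genes together came to 31.7 ± 2.74 CPM per kb in WT and 34.7 ± 1.25 in MUT, and the 3 RXR genes to 58.3 ± 5.89 and 62.4 ± 2.82. The ratio of RXR to RAR lay between 1.75 and 1.95 in the 6 samples, at 1.84 ± 0.105 in WT and 1.80 ± 0.0508 in MUT. RXR mRNA per length was thus above RAR mRNA in every sample, and the ratio did not separate the groups.

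**Figure D1:**
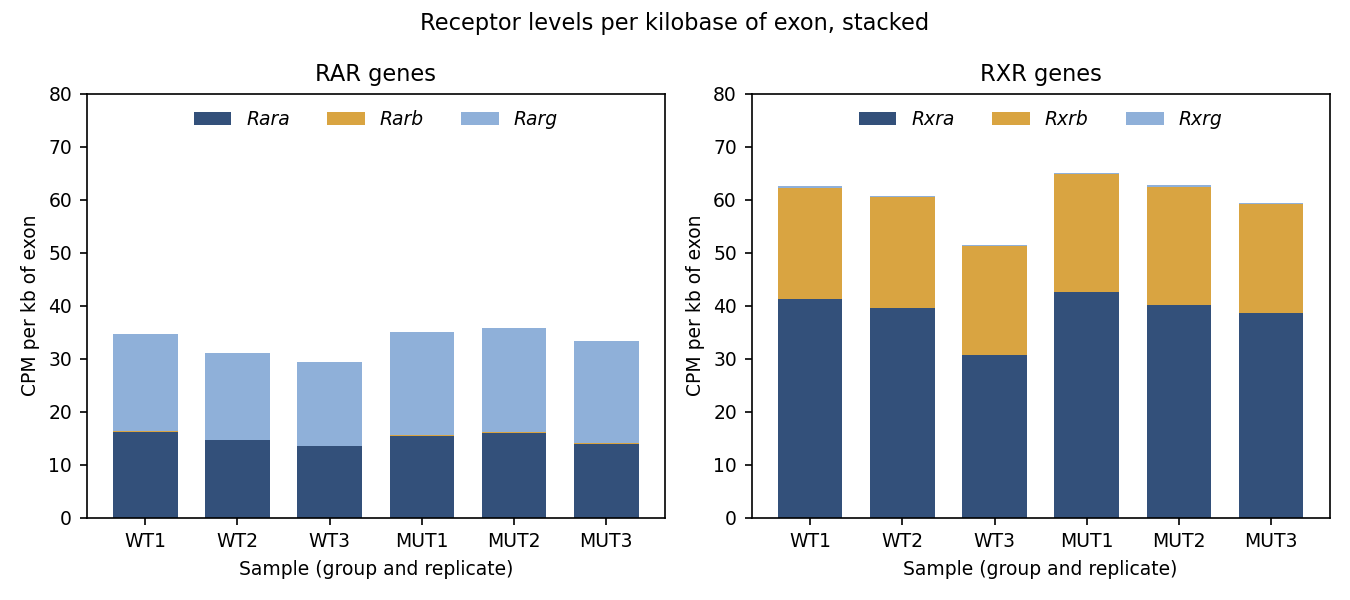
Level per kilobase of exon (CPM per kb) of the RAR genes (left) and the RXR genes (right) in each of the 6 samples, stacked. RAR sums lie between 29.4 and 35.7 and RXR sums between 51.5 and 65.0, and Rarb and Rxrg are too low to be seen at this scale.

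The comparison of MUT with WT asked whether Hras G12V changed the level of each receptor. None of the 6 members was called at an adjusted p under 0.1 by edgeR's quasi-likelihood test, and over all 19656 tested genes 2 were, or 0.0102%. At an unadjusted p under 0.05 the count was 1 of 6 members (Rarg), against 2.78% of all tested genes. All MUT samples lay above all WT samples for 2 members (Rarg and Rarb), against 4.69% of tested genes, and for no member did all lie below, against 3.00%. The median log2 fold change was 0.09 over the 6 members and 0.0066 over all tested genes. In bulk RNA, fewer cells with a transcript and less of it per cell cannot be told apart.

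Rarg codes for RAR gamma, the form known from differentiating spermatogonia, on chromosome 15 (102234938-102257517, minus strand). Its normalized level was 78.4, 69.8 and 67.1 CPM in WT replicates 1 to 3, and 82.8, 83.5 and 81.6 CPM in MUT replicates 1 to 3. The 3 MUT samples lay within 2 CPM of one another and above the highest WT sample, while the WT samples were spread more widely. The edgeR log2 fold change was 0.20 ± 0.07 (SE; 95% interval 0.03 to 0.37), or 1.15-fold, with p = 0.0240 unadjusted, an adjusted p of 0.998 and an exact two-sided permutation p of 0.1. The permutation test used the 20 assignments of samples to groups, and 0.1 is the smallest p that 3 against 3 samples can give. DESeq2 gave an unadjusted p of 0.0530 for the same gene, and edgeR with 1 sample left out gave unadjusted p-values from 0.00541 to 0.102, of which 4 of 6 were above 0.05 (without WT replicate 2 or 3, or without MUT replicate 1 or 2).

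Rara codes for RAR alpha, the form known for its role in Sertoli cells and present in germ cells too, on chromosome 11 (98927818-98974942, plus strand). It was at 70.6, 63.7 and 58.8 CPM in the WT replicates and 67.4, 69.7 and 60.8 CPM in the MUT replicates. The MUT values lay inside the WT range. The log2 fold change of 0.03 ± 0.09 had an interval of −0.17 to 0.24 and an adjusted p of 0.998 (edgeR), which corresponds to 0.891-fold to 1.18-fold. Its sign turned when WT replicate 3 (−0.03) or MUT replicate 2 (−0.02) was left out.

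The proportion of Rarg within the RAR genes was 53.0%, 52.7% and 53.6% in the WT replicates and 55.5%, 54.9% and 57.6% in the MUT replicates, per length. The lowest MUT value exceeded the highest WT value, with a difference of 2.87 percentage points between the means. Correspondingly the ratio of Rarg to Rara was 1.14 ± 0.0242 in WT and 1.29 ± 0.0778 in MUT. With 1 sample left out in turn the difference in the Rarg proportion ran from 2.07 to 3.42 percentage points. These proportions are a description, and no test was made of them.

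Rxra, on chromosome 2 (27676440-27762957, plus strand), was at 225, 216 and 168 CPM in the WT replicates and 233, 219 and 211 CPM in the MUT replicates. WT replicate 3 was the lowest of the 6 samples, and the other 5 lay between 211 and 233 CPM. The log2 fold change was 0.12 ± 0.11 (95% interval −0.13 to 0.38; edgeR adjusted p = 0.998), and it was 0.0028 when WT replicate 3 was left out. The same library was lowest for the 8 coactivator genes summed, at 999 CPM against 1370 to 1538 CPM in the other samples, and whether the Rxra value and these have the same source was not tested.

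Rxrb, which codes for RXR beta, lies on chromosome 17 (34031812-34038393, plus strand) and was the steadiest of the 6. It measured 77.4, 77.8 and 75.7 CPM in the WT replicates and 81.9, 82.6 and 76.0 CPM in the MUT replicates. MUT replicate 3 fell within the WT range and the other 2 MUT samples above it. The log2 fold change was 0.06 ± 0.06 with a 95% interval of −0.09 to 0.20 (edgeR adjusted p = 0.998), which corresponds to 0.942-fold to 1.15-fold.

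Rarb codes for RAR beta, on chromosome 14 (16430839-16819156, minus strand). It had 18, 15 and 17 counts in the WT replicates and 20, 20 and 24 counts in the MUT replicates, against a limit of 3 counts taken as not distinguishable from 0. All MUT counts were above all WT counts, but the sums of 50 in WT and 64 in MUT had exact Poisson 95% intervals of 37.1 to 65.9 and 49.3 to 81.7, which overlapped. The log2 fold change was 0.37 ± 0.25 (95% interval −0.21 to 0.94; edgeR p = 0.186, adjusted p = 0.998; exact permutation p = 0.1), so no difference was resolved at these counts. Because counting ignored strand, fragments read from the opposite strand within the unshared exons of Rarb would have been counted as Rarb.

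Rxrg codes for RXR gamma, on chromosome 1 (167598384-167639623, plus strand). It had 15, 12 and 19 counts in WT and 11, 14 and 11 counts in MUT, and the groups overlapped. Its log2 fold change of −0.34 ± 0.31 was the only negative one of the 6 and had a 95% interval of −1.05 to 0.37 (edgeR adjusted p = 0.998). The sums of 46 and 36 counts had Poisson intervals of 33.7 to 61.4 and 25.2 to 49.8. These intervals cover counting error only.

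**Figure D2:**
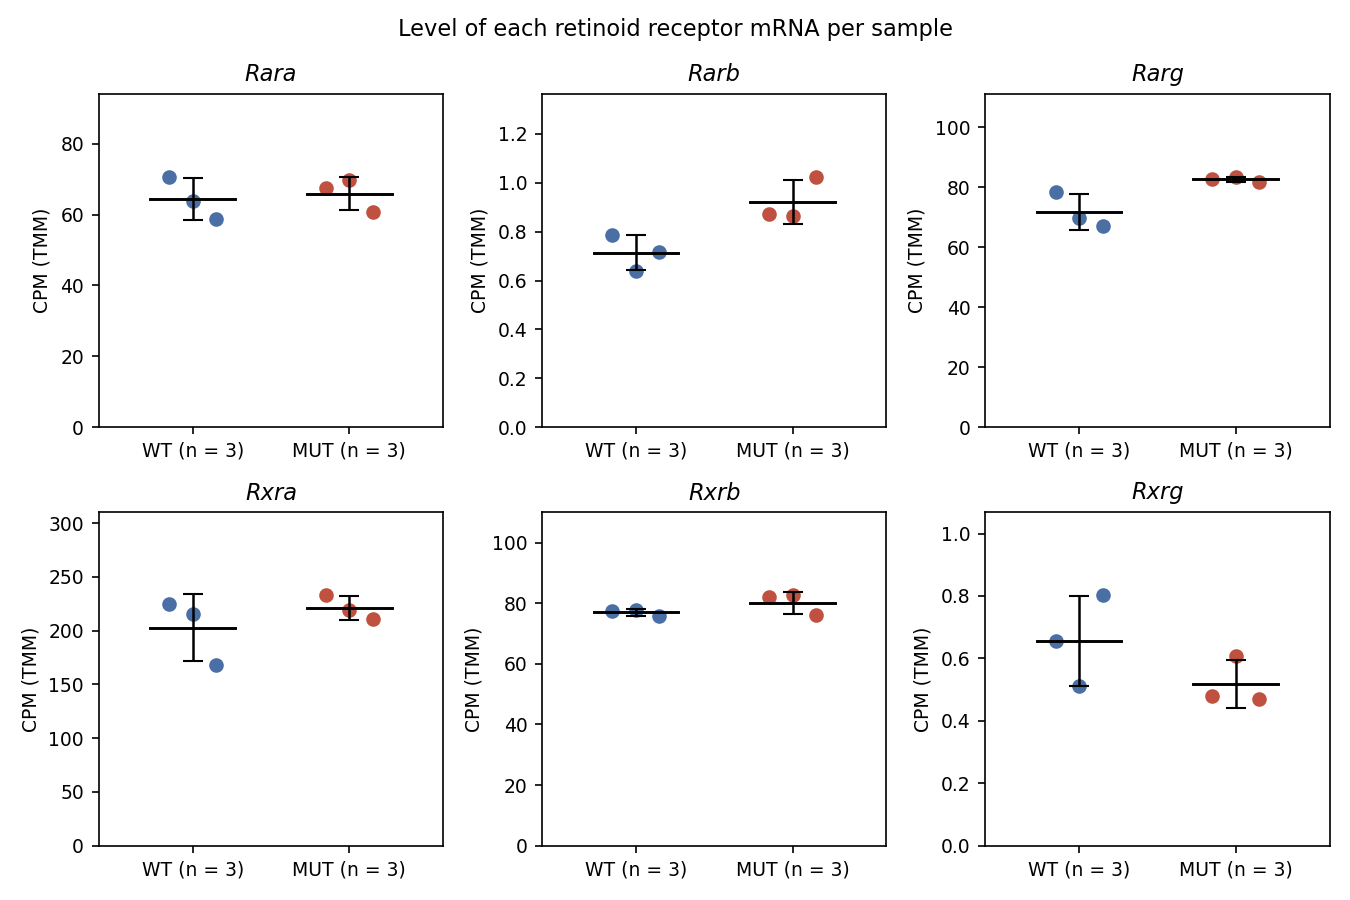
TMM-normalized level (CPM) of each receptor in every sample; points are samples, horizontal lines are group means and bars are SD (n = 3). The MUT points lie above the WT points for Rarg and Rarb and overlap them for the other 4 genes, and each panel has its own scale from 0.

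For 5 of the 6 members the 95% interval lay within 1 log2 unit of 0 on both sides, the exception being Rxrg. The same held for 81.6% of all tested genes.

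**Figure D3:**
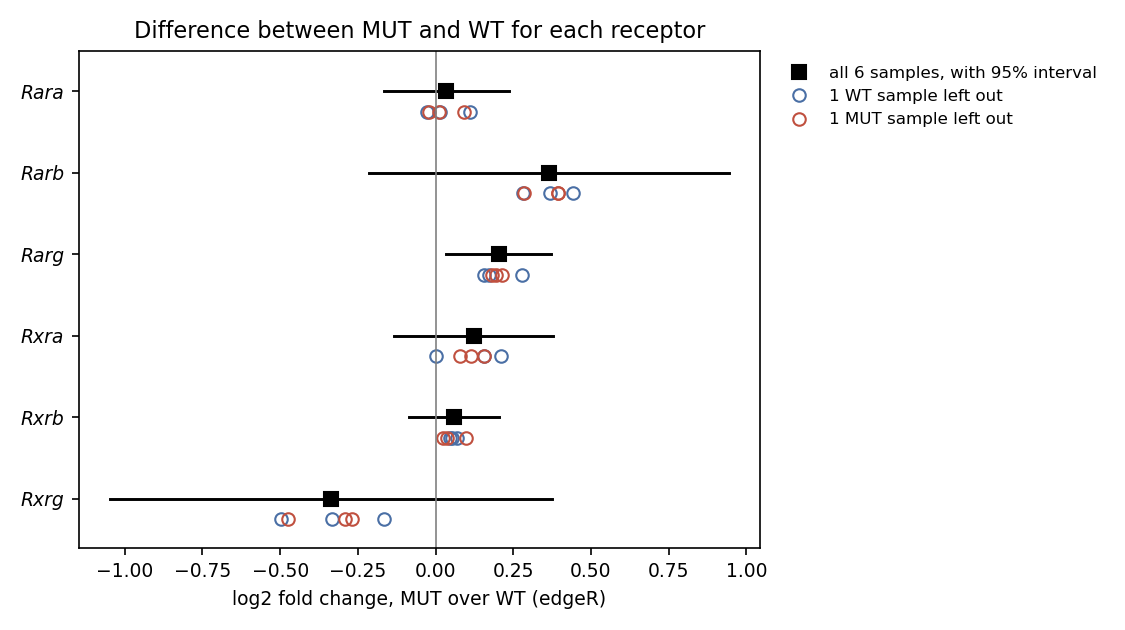
The log2 fold change of MUT over WT for each receptor (squares) with its 95% interval (lines), from edgeR on all 6 samples, and the value with 1 WT or 1 MUT sample left out (open circles). The interval of Rarg, 0.03 to 0.37, is the only one that does not include 0, before adjustment for the number of genes tested.

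The patterns of the 4 receptors with a mean of at least 1 CPM were set against 10582 other genes with a mean of at least 10 CPM, by Pearson's r of log2 CPM over the 6 samples. The genes most alike were Mpp5 (r = 0.997) and Eml2 (0.988) for Rara, H2-Q2 (0.989) and Trp53 (0.985) for Rarg, Pdcd11 and Supt5 (both 0.997) for Rxra, and Stag1 (0.996) and Ints8 (0.993) for Rxrb. With 6 points that share libraries and normalization, such values are easily reached: 455 genes had r of at least 0.95 with Rxra and 24 with Rarg. Reads of H2-Q2 can be split with near-identical genes of its family, so its counts are uncertain.

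The rest of the retinoic acid pathway was taken from lists of 56 genes in all, of which 53 were tested. None was called at an adjusted p under 0.1 (0 in each direction). At an unadjusted p under 0.05 there were 3 of 53 with a higher mean in MUT (Stra8, Kit and Ncoa1) and 0 with a lower one, against 2.78% of all tested genes in both directions. All MUT samples lay above all WT samples for 3 genes (Stra8, Ncoa1 and Ppara), against 4.69% of tested genes, and below for 1 (Rdh10), against 3.00%. Ncoa1 and Ppara are named after their values were seen. The median log2 fold change was 0.08 over the 53 genes, and the interval lay within 1 log2 unit of 0 for 48 of them.

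Of the 17 genes for the supply and breakdown of retinoic acid, all were tested and 0 were called in either direction, with a median log2 fold change of 0.10. Rdh10, the retinol dehydrogenase of the first oxidation step, measured 17.2 ± 0.545 CPM in WT and 15.3 ± 0.135 CPM in MUT, with the MUT samples all below the WT samples and a log2 fold change of −0.16 ± 0.10 (edgeR adjusted p = 0.998). Dhrs3, which turns retinaldehyde back to retinol, had a log2 fold change of −0.25 ± 0.18, which was −0.04 without WT replicate 3. Of the enzymes of the second step, Aldh1a2 was at 39.2 ± 4.15 CPM in WT and 43.7 ± 2.94 CPM in MUT, and the groups overlapped. That overlap rested on WT replicate 3, at 43.8 CPM. WT replicates 1 and 2 were at 35.8 and 37.8 CPM, below all MUT samples (41.5 to 47.1 CPM). The log2 fold change of Aldh1a2 was 0.16 ± 0.10, and 0.25 ± 0.08 without WT replicate 3.

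Aldh1a1 had 362, 345 and 472 counts in WT and 364, 346 and 815 counts in MUT. Its MUT mean rested on replicate 3, the sample that also had the highest sum of the 6 Leydig cell markers (67.2 CPM, against 12.9 to 21.1 CPM in the other 5 samples). The part of those cells in the Aldh1a1 value was not tested.

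The retinoic acid-binding protein gene Crabp1 was abundant, at 101 ± 10.1 CPM in WT and 108 ± 12.3 CPM in MUT, whereas Crabp2 was at 1.41 ± 0.248 and 1.51 ± 0.441 CPM (log2 fold change 0.10 ± 0.28, and −0.04 without WT replicate 3). Cyp26b1, which codes for the other main degrading enzyme, was at 38.9 ± 6.86 CPM in WT and 39.2 ± 8.35 CPM in MUT, and its log2 fold change of 0.01 was −0.06 without the same library. Cyp26a1, whose promoter holds the DR5 element shown with that of Rarb, had 171, 155 and 216 counts in WT and 204, 202 and 185 counts in MUT. Its groups overlapped, with a log2 fold change of 0.14 ± 0.16 and an edgeR adjusted p of 0.998. The overlap for Cyp26a1 rested on WT replicate 3, at 9.11 CPM. WT replicates 1 and 2 were at 7.46 and 6.61 CPM, below all MUT samples (7.90 to 8.90 CPM). Without WT replicate 3 the log2 fold change of Cyp26a1 was 0.27 ± 0.15. Per kilobase of exon, Cyp26a1 averaged 4.58 CPM per kb against 0.155 CPM per kb for Rarb, or 0.252 over the unshared bases of Rarb.

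The coregulators that the receptors recruit were measured well and were not called. All 7 corepressor genes and all 8 coactivator genes were tested, with 0 called in either direction and median log2 fold changes of 0.05 and 0.07. The corepressor gene Ncor1 had a log2 fold change of 0.14 ± 0.15, and the coactivators Ncoa3 and Crebbp had 0.07 ± 0.14 and 0.06 ± 0.17. Without WT replicate 3 all 3 values turned negative, at −0.04, −0.08 and −0.14. The number of genes with a positive value then went from 6 to 3 of 7 corepressors and from 7 to 1 of 8 coactivators. Ncoa1, another p160 coactivator, was at 22.3 ± 1.87 CPM in WT and 26.3 ± 1.86 CPM in MUT (log2 fold change 0.24 ± 0.10; edgeR p = 0.0477, adjusted p = 0.998; exact permutation p = 0.1).

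Of 13 other nuclear receptors that pair with RXR, 10 were tested and 0 were called in either direction, with a median log2 fold change of 0.01. Nr1h2, the liver X receptor beta gene, was at 130 ± 7.88 CPM in WT and 134 ± 0.469 CPM in MUT (log2 fold change 0.04 ± 0.07, and −0.0070 without WT replicate 3). Its mean level per length over the samples, 39.3 CPM per kb, was close to the 38.8 CPM per kb of Rxra. Thra, for thyroid hormone receptor alpha, was at 17.3 ± 2.26 and 17.1 ± 0.779 CPM, and Vdr, the vitamin D receptor gene, at 1.78 ± 0.383 and 1.90 ± 0.222 CPM.

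Of 11 genes known to respond to retinoic acid, all were tested and 0 were called in either direction, while 10 had a positive log2 fold change, against 51.8% of all tested genes, and the median was 0.28. Stra8, which germ cells need to enter meiosis, had 3638, 4048 and 4132 counts in WT and 4223, 5591 and 4371 counts in MUT. The MUT samples all exceeded the WT samples, with a log2 fold change of 0.28 ± 0.11 (edgeR p = 0.0361, adjusted p = 0.998; exact permutation p = 0.1). Kit, the stem cell factor receptor of differentiating spermatogonia, was at 141 ± 21.5 CPM in WT and 182 ± 38.6 CPM in MUT, and its groups overlapped (log2 fold change 0.36 ± 0.16; edgeR p = 0.0497, adjusted p = 0.998; exact permutation p = 0.3). Kit was higher in MUT in 3 of 3 same-numbered pairs, a count that was not taken over all genes. The labels do not establish these pairs. With the replicate number as a block, edgeR gave Kit an adjusted p of 0.243. Without WT replicate 3 its log2 fold change was 0.27 ± 0.16. Rec8, a meiotic cohesin gene, had a log2 fold change of 0.19 ± 0.13, and 0.29 ± 0.12 without WT replicate 3.

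**Figure D4:**
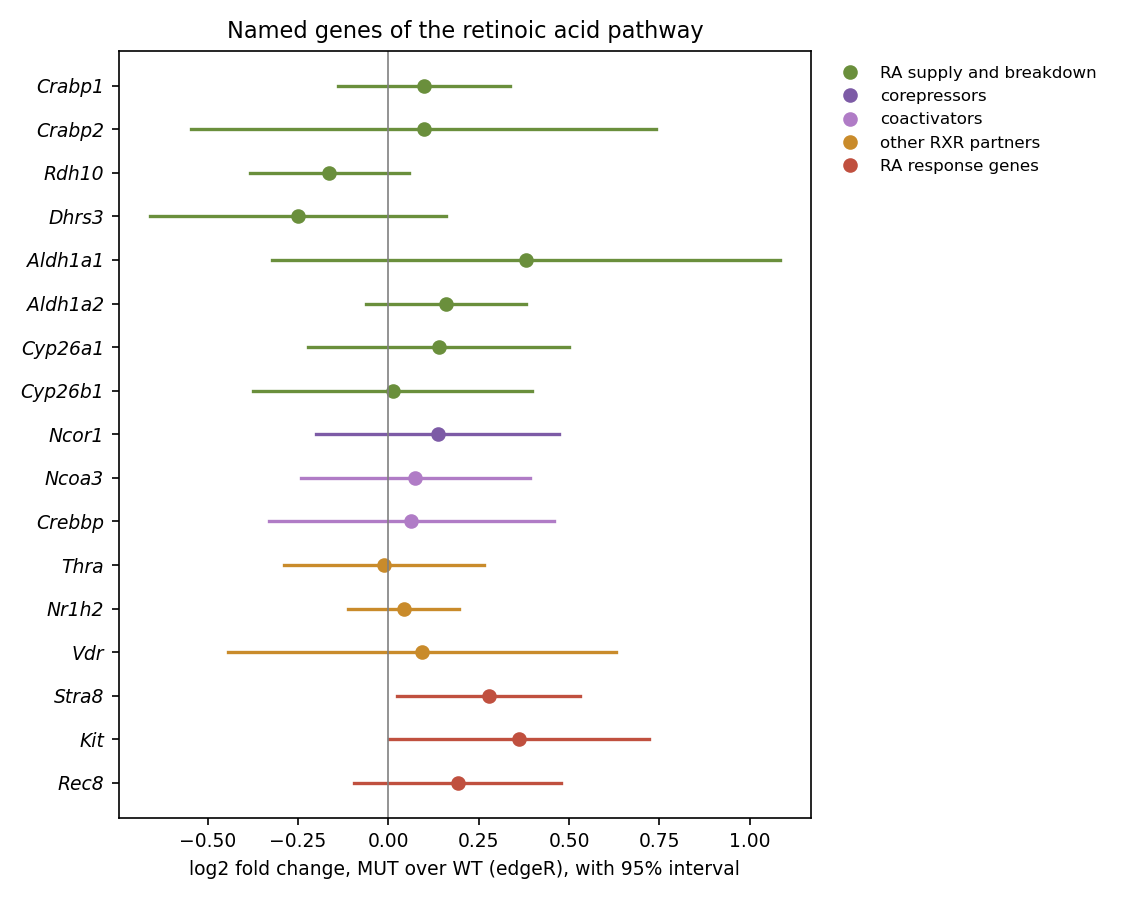
The log2 fold change of MUT over WT (points) with its 95% interval (lines) for 17 named genes of the retinoic acid pathway, coloured by list, from edgeR. The intervals of Stra8 (0.02 to 0.53) and Kit (0.00061 to 0.72) lie above 0 before adjustment, and those of the other 15 genes include 0.

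The summed level of the 11 response genes was 631 to 723 CPM in WT and 744 to 861 CPM in MUT, so the groups did not overlap. The 5 markers of differentiating spermatogonia summed to 606 to 671 CPM in WT and 696 to 844 CPM in MUT, again without overlap, and all 5 had a positive log2 fold change. Of the 12 markers of undifferentiated spermatogonia, 6 had a positive log2 fold change, with a median of −0.02. All MUT samples lay above all WT samples for 2 of these 12 (Lin28a and Nanos3), against 4.69% of tested genes. They lay below for 0, against 3.00%. At an unadjusted p under 0.05 (edgeR) there was 1, with a higher mean in MUT. The lists of response genes and of differentiating markers both hold Stra8 and Kit. Without these 2 genes, a choice made after seeing the data, the ranges overlapped for the other 9 response genes (333 to 410 CPM in WT and 393 to 443 CPM in MUT). They also overlapped for the other 3 markers (312 to 348 and 346 to 376 CPM). That second overlap rested on WT replicate 3, without which the 3 markers summed to 312 to 333 CPM in WT, below all MUT samples. The summed level of the other 9 response genes still overlapped without it (385 to 410 CPM in WT). Most of that sum was Ccnd2, at 359, 331 and 266 CPM in WT and 385, 321 and 326 CPM in MUT. The sum therefore mainly describes Ccnd2, and the remaining response genes were not summed on their own.

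Markers of other cells went in different directions. Positive log2 fold changes were found for 5 of 5 tested Leydig, 5 of 7 Sertoli and 3 of 4 peritubular myoid cell markers. They were found for 2 of 6 spermatocyte and 2 of 4 endothelial cell markers. The Leydig values rested on MUT replicate 3, where these markers summed to 67.2 CPM. Their sum was 12.9 and 13.5 CPM in MUT replicates 1 and 2, and 13.1 to 21.1 CPM in WT. The peritubular myoid sum was also highest in MUT replicate 3, at 9.69 CPM against 4.93 to 7.08 CPM in the other samples. All 5 spermatid markers had a negative log2 fold change, with a median of −0.56, and their sum was 1154, 855 and 1457 CPM in the WT replicates and 592, 619 and 1129 CPM in the MUT replicates. MUT was lower in each same-numbered pair, though the labels do not establish the pairs, and the ranges of the groups overlapped. All 6 macrophage markers had a negative log2 fold change too, with a median of −0.30, and their sums overlapped (562 to 949 CPM in WT and 494 to 616 CPM in MUT). No marker of these lists was called. The part of cell makeup in the Rarg, Stra8 and Kit values was not tested.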

How the data were processed

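RNA-seq of 3 WT and 3 MUT samples was analysed. Per the labels and methods, RNA was extracted with a PicoPure kit, libraries were made with TruSeq Stranded mRNA and sequenced as 50-base pairs. The counts deposited by the authors are raw fragment numbers per gene symbol from featureCounts 1.6.2, run on GENCODE vM17 with tdTomato added (GRCm38.p6), unstranded, without multi-mapping or ambiguous fragments. STAR is named in the submitters' processing notes, and its settings are not given in the sources used here. Gene-level counts do not separate receptor isoforms.

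The samples were joined by gene name. In R 4.3.3, edgeR 4.0.16 (TMM, filterByExpr, quasi-likelihood test, genotype as the only term) compared MUT with WT, with Benjamini-Hochberg adjustment over all 19656 tested genes and a threshold of 0.1. CPM values are TMM-normalized, and per-length values divide them by exon length. Depth was 22729292 to 23550433 counts, and intervals from counts cover counting error only. Alternatives were DESeq2 1.42.0, limma 3.58.1 voom, other scaling and filters, a threshold of 0.05, the replicate number as a block, and each sample left out.

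Same-numbered WT and MUT samples deviated together from their group means (correlations over 10583 genes of 0.30, 0.16 and 0.40). Each was over 0.1, the rule used here for fitting the replicate number as a block. The rule cannot establish the pairing. Deviations from the mean of a small group are tied together, and a pair of unlike numbers passed it too. The block was an alternative only, and the main edgeR fit and the permutation tests did not use the pairing. WT replicate 2 correlated more with MUT replicate 1 (0.33) than with its own number, and the other pairs of unlike numbers gave −0.42 to 0.08. The pairing rests on the labels' numbers and on these values; the labels do not name a shared litter.

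The members, the gene lists and the tests were chosen with earlier results of these data known. Named genes were all members, 17 pathway genes whatever their values, any list gene with an adjusted p under 0.1, and the 2 genes most alike each member with at least 1 CPM. Ncoa1, Ppara, Ccnd2, Lin28a and Nanos3 were added after their values were seen. Receptor promoter and transcript sequences came from RefSeq and GENCODE vM21 on GRCm38, and 47 of 62 listed receptor and pathway genes had a promoter window. A level of 3 counts in a library was taken as the limit that a count of 0 allows. The result for 1 other listed gene is left out of this text and of the lists.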

Additional observations from a re-analysis of the deposited data

How the results depend on the processing

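No alternative brought any receptor past an adjusted p of 0.1. The sign of the log2 fold change held for Rarb, Rarg, Rxra, Rxrb and Rxrg in all 13 alternatives each. For Rara it turned without WT replicate 3 or MUT replicate 2, and with 1 sample left out it ran from −0.027 to 0.11, as did the difference of its mean log2 CPM (−0.027 to 0.10); the cause was not tested. Of 18 named pathway genes, 6 turned negative without WT replicate 3, an alternative added after seeing the data: Ncor1 (−0.036), Ncoa3 (−0.083), Crebbp (−0.14), Nr1h2 (−0.0070), Crabp2 (−0.037) and Cyp26b1 (−0.060). The block turned none of the 18. Across all genes, the number called, 2 with all samples, was 9 with DESeq2, 4 with limma voom, 5 with no filter, 0 with at least 10 counts in every sample (494 at an unadjusted p under 0.05) and 1 at a threshold of 0.05, and between 0 and 8 with 1 sample left out. Genes at an unadjusted p under 0.05 (edgeR) numbered 547 with all samples. Without MUT replicate 3 they numbered 1736, the most for any sample left out. Fits with the replicate number as a block called 13 genes (edgeR) and 55 (DESeq2). The block changed no member's call, and Rarg kept a log2 fold change of 0.21 (edgeR adjusted p = 0.617). The low counts of Rarb and Rxrg limit what can be said of them.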
